A study of Mus musculus with 6 samples.

Results

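Transcript levels of 10 genes of the Toll-like receptor system were examined in colorectal tissue of colitis mice receiving berberine (BBR) or sulfasalazine (SASP). The genes were selected by symbol for their function, with earlier results of these data known, and all 10 were found among the 18268 genes of the RNA-seq table. They were the lipopolysaccharide (LPS) binding protein Lbp, the LPS co-receptors Cd14 and Ly96, the receptors Tlr1, Tlr2, Tlr3, Tlr4, Tlr5 and Tlr9, and the shared adaptor Myd88.

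The samples came from 3 colitis mice receiving BBR, a plant alkaloid, and 3 colitis mice receiving SASP, an aminosalicylate prodrug in clinical use for colitis. All 6 mice were male C57BL/6 mice of 8 to 10 weeks with no engineered allele named, and all were given water with 2.5% dextran sulfate sodium (DSS), which damages the colon epithelium, for 7 days. BBR at 100 mg/kg or SASP at 200 mg/kg was given by gavage for 6 days. Healthy mice and colitis mice without a drug were not analysed here, so each value below compares one drug with the other. DSS colitis is a chemical injury model, and whole tissue was sequenced, so fewer cells of a type and less RNA per cell cannot be told apart.

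Toll-like receptors are innate immune receptors that recognise conserved microbial molecules. LPS of Gram-negative bacteria is extracted by Lbp, passed to Cd14 and presented to the receptor Tlr4 bound to Ly96 (also called MD-2). Tlr2 together with Tlr1 senses bacterial lipoproteins, Tlr5 senses flagellin, and Tlr3 and Tlr9 sense double-stranded RNA and unmethylated CpG DNA inside endosomes. All of these receptors except Tlr3 signal through Myd88, whereas Tlr3 uses the adaptor Ticam1 (TRIF), which Tlr4 also uses. In the colon these receptors are found on epithelial cells, macrophages and other leukocytes facing the microbiota.

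Values are FPKM (fragment counts normalised for transcript length and sequencing depth), a unit that allows levels of different genes to be compared per length. Fold changes were computed on the log2(FPKM + 1) scale as BBR minus SASP and tested with limma, with p-values adjusted over the 12072 genes with at least 1 FPKM in at least 3 samples. Across these genes 8.86% differed at an adjusted p-value under 0.05 (5.04% lower and 3.82% higher in BBR mice), the median log2 fold change was 0.10, and 39.2% of the genes had a negative value. Epithelial markers were abundant in all mice (summed level of 8 markers 6338 to 7607 FPKM), so the tissue label and these markers did not conflict. Per sample, 11518 to 12307 genes reached 1 FPKM. BBR mouse 3 stood apart from its group: its log2 levels correlated across genes with those of the other BBR mice at 0.953 and 0.949, where the other pair reached 0.987. For the members and the list genes named below, calls that turned on this mouse are given with and without it. Genes that are not named may also gain or lose a call without it.

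Cd14, Tlr3 and Myd88 were lower in colitis mice receiving BBR, and these were the 3 members past the threshold of the 8 tested, against 8.86% of all genes in either direction. Lbp, Tlr4 and Tlr2 also had negative values, but they did not pass the threshold with all mice, and their BBR values were spread by BBR mouse 3. Ly96 and Tlr1 differed by less than the spread between mice. Tlr5 and Tlr9 lay under the filter and were not tested. Non-overlapping groups were found in 4 of the 8 tested members, Cd14, Tlr3, Myd88 and Tlr2, each with BBR below SASP. Among all tested genes 37.9% had non-overlapping groups, 16.6% with BBR below and 21.3% with BBR above SASP. The median log2 fold change of the 8 tested members was -0.77, beside 0.10 for all genes tested, with 8 of 8 values below 0.

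**Figure D1:**
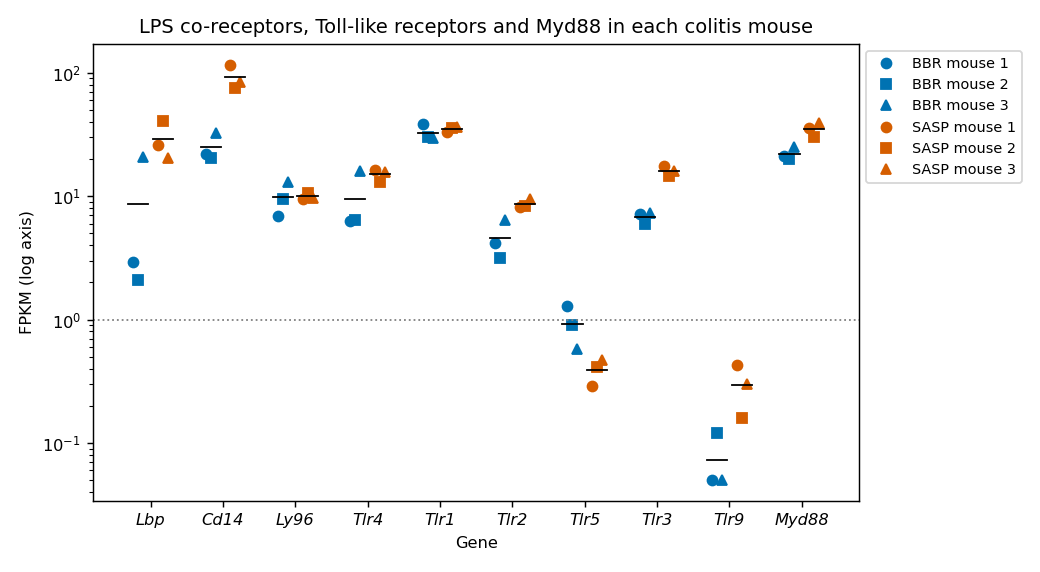
FPKM (log axis) of the 10 genes in each mouse, with blue symbols for BBR, orange symbols for SASP, a symbol shape per mouse and a black line at each group mean; the dotted line marks 1 FPKM. Cd14, Tlr3 and Myd88 show no overlap between groups, while for Lbp and Tlr4 the triangle of BBR mouse 3 lies among or beside the SASP values.

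RefSeq promoters (build GRCm38.p6) were matched by Gene ID for 6 of the 10 members, Tlr1, Tlr2, Tlr3, Tlr5, Tlr9 and Myd88, and not for Cd14, Lbp, Ly96 and Tlr4. Those of Myd88, Tlr3 and Tlr2 are shown because these were the tested members with a matched promoter whose groups did not overlap. The 250 bases before each start site were searched on both strands for the interferon-stimulated response element core (GAAA, any 2 bases, GAAA), the interferon-gamma activated site core TTCNNNGAA and the NF-kB consensus. Capitals mark the matched bases, and sequences run 5′ to 3′ on the strand of the gene.
Myd88, chr9:119340019-119340268, minus strand: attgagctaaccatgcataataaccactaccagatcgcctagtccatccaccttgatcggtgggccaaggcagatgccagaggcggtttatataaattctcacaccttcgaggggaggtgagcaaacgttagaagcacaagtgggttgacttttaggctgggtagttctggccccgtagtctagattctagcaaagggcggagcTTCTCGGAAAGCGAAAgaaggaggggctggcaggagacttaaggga
Tlr3, chr8:45410381-45410630, minus strand: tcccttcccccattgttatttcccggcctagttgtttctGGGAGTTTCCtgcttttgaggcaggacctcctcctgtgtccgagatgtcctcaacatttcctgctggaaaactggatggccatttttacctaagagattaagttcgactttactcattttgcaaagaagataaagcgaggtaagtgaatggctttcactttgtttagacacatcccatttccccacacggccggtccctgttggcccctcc
Tlr2, chr3:83841609-83841858, minus strand: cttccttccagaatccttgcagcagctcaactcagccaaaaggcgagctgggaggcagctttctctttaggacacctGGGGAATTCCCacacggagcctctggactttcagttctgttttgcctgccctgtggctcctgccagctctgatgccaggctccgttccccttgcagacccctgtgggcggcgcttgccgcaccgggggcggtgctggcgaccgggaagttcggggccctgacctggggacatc

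In the Myd88 promoter the interferon-gamma activated site core (-46 to -38 from the start) and the interferon-stimulated response element core (-40 to -31) overlapped in 3 bases. The Tlr3 promoter held a single NF-kB consensus match at -211 to -202. The Tlr2 promoter held overlapping NF-kB consensus matches between -173 and -163. Of the other matched members, a start of Tlr1, whose level did not separate the groups, held an interferon-gamma activated site core at -228 to -220. Among 32851 promoter windows of the same length, 2.98% held the interferon-stimulated response element core, 7.02% the interferon-gamma activated site core and 7.25% the NF-kB consensus. A match is a run of letters and not a measured binding site.

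LPS recognition was described first. Cd14 (Gene ID 12475), the receptor that hands LPS to the Tlr4 complex, was at 21.97, 20.30 and 32.26 FPKM in BBR mice 1, 2 and 3 and at 116.25, 75.73 and 83.93 FPKM in SASP mice 1, 2 and 3. The highest BBR value was below the lowest SASP value. The group means were 24.8 ± 6.48 and 92.0 ± 21.4 FPKM (SD, n = 3 each), 3.70-fold lower in BBR mice. The log2 fold change was -1.85 (SE 0.22, 95% interval -2.37 to -1.33, limma adjusted p = 0.00891), and 0.911% of the tested genes had a lower value. The call held without any single mouse, with log2 fold changes from -2.05 to -1.67, and was lost with a smooth muscle covariate (-1.76, adjusted p = 0.148).

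Lbp (16803), the secreted protein that extracts LPS from bacterial membranes, was at 2.94, 2.10 and 20.91 FPKM in BBR mice and at 25.83, 40.52 and 20.32 FPKM in SASP mice. BBR mouse 3 lay above SASP mouse 3, so the groups overlapped, whereas BBR mice 1 and 2 lay far below all SASP mice. The log2 fold change was -2.16 (SE 0.71, 95% interval -3.84 to -0.48), the lowest of the members, and did not pass the threshold (limma adjusted p = 0.0937). Without BBR mouse 3 it was -3.04 and passed (adjusted p = 0.00197). The mean of SASP mice was 11.5 times that of BBR mice 1 and 2, and BBR mouse 3 was at 8.30 times their mean.

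Tlr4 (21898), the signalling receptor for LPS, showed the same arrangement at a smaller size. It was at 6.28, 6.41 and 15.88 FPKM in BBR mice and at 16.33, 12.98 and 15.70 FPKM in SASP mice. BBR mouse 3 lay within the SASP range, and the other BBR mice lay below it. The difference on the log2 scale was -0.72 (SE 0.33, 95% interval -1.49 to 0.05, limma adjusted p = 0.179), and without BBR mouse 3 it was -1.12 and passed the threshold (adjusted p = 0.00287).

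Ly96 (17087), the Tlr4 partner that binds LPS directly, was at 6.96, 9.40 and 13.00 FPKM in BBR mice and at 9.56, 10.60 and 9.67 FPKM in SASP mice. All SASP values lay inside the BBR range, and BBR mouse 3 was the highest of all mice. On the log2 scale the groups differed by -0.06 (SE 0.21, 95% interval -0.54 to 0.43, limma adjusted p = 0.863), and it turned to 0.14 without BBR mouse 1. A change of either sign up to these bounds could not be told from the spread between mice. Without BBR mouse 3 the other BBR values lay just below all SASP values, at a log2 fold change of -0.27 that did not pass the threshold. Of the LPS recognition genes, Cd14 thus separated the groups with all mice included, while Lbp, Tlr4 and Ly96 overlapped through BBR mouse 3.

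The lipoprotein receptors came next. Tlr2 (24088) was at 4.15, 3.18 and 6.38 FPKM in BBR mice and at 8.18, 8.27 and 9.42 FPKM in SASP mice. The groups did not overlap, with BBR below SASP in all mice. Its log2 fold change was -0.83 (SE 0.21, 95% interval -1.33 to -0.32) and missed the threshold (limma adjusted p = 0.0587). Without BBR mouse 3 it was -1.05 (adjusted p = 0.00442).

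Tlr1 (21897), the partner of Tlr2 in recognising triacylated lipoproteins, was at 38.32, 30.33 and 29.53 FPKM in BBR mice and 33.27, 36.00 and 36.28 FPKM in SASP mice. Between the groups there was overlap, with BBR mouse 1 above all SASP mice and the other BBR mice below them. Its log2 fold change was -0.11 (SE 0.12, 95% interval -0.40 to 0.18, limma adjusted p = 0.565). Tlr1 was the Toll-like receptor with the highest level per length in both groups, and in each mouse its FPKM exceeded those of Tlr2, Tlr3 and Tlr4. Its close paralog Tlr6, the alternative partner of Tlr2, was at 0.30 to 0.43 FPKM. RSEM divides reads that match more than one gene, so the division between Tlr1 and Tlr6 is uncertain.

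Among the receptors for nucleic acids, Tlr3 (142980) was at 7.19, 5.95 and 7.30 FPKM in BBR mice and 17.44, 14.59 and 15.87 FPKM in SASP mice. Values within each group were tight, the highest BBR value being 1.23 times the lowest, and BBR mouse 3 lay with its group. The means were 6.81 ± 0.750 and 16.0 ± 1.43 FPKM (SD, n = 3 each), 2.34-fold lower in BBR mice. The log2 fold change was -1.12 (SE 0.13, 95% interval -1.42 to -0.82, limma adjusted p = 0.00826), and 0.572% of the tested genes had a smaller p-value. Leaving out single mice gave -1.18 to -1.04, and the call was lost on omitting SASP mouse 3 (-1.12, adjusted p = 0.0560) and with the smooth muscle covariate (-1.04, adjusted p = 0.147).

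Tlr9 (81897) was barely detected, at 0.05, 0.12 and 0.05 FPKM in BBR mice and at 0.43, 0.16 and 0.30 FPKM in SASP mice. These levels correspond to about 3 to 26 reads per sample on the estimated depth of 16600000 to 18300000 reads, and the gene was not tested. All BBR values lay below all SASP values, as they did for 12.2% of all listed genes. In the fit with no filter its log2 fold change of -0.27 did not pass (adjusted p = 0.108).

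Tlr9 is known from B cells, and their markers were set beside it. The summed level of 4 B cell markers (Cd79a, Cd79b, Ms4a1 and Pax5) was 2.03, 2.24 and 0.96 FPKM in BBR mice and 24.80, 4.24 and 12.48 FPKM in SASP mice. SASP mice 1, 3 and 2, from highest to lowest, had the same order for Tlr9 and for these markers. The pan-leukocyte, T cell and plasmacytoid dendritic cell sums given below had this order too, and the macrophage and granulocyte sums did not. The order was thus not particular to B cells. Of the 2 B cell markers tested, Cd79b fell (log2 fold change -1.63, limma adjusted p = 0.0489) and Cd79a did not pass (-1.97, adjusted p = 0.0716). Ms4a1 and Pax5 had overlapping groups and were not tested. The part of B cells in the level of Tlr9 was not tested.

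Tlr5 (53791), the flagellin receptor, was the 1 member with all BBR values above all SASP values, at 1.28, 0.90 and 0.58 FPKM in BBR mice and at 0.29, 0.41 and 0.47 FPKM in SASP mice. This separation and direction was found in 18.5% of all listed genes. About 19 to 82 reads per sample stood behind these values, and the gene was not tested because only 1 mouse reached 1 FPKM. In the fit with no filter the log2 fold change was 0.45 (adjusted p = 0.120). BBR mouse 3 was the BBR mouse nearest to the SASP mice for this gene too.

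Myd88 (17874), the adaptor below all of these receptors except Tlr3, was at 21.03, 20.03 and 24.96 FPKM in BBR mice and at 35.86, 30.39 and 39.11 FPKM in SASP mice. The groups did not overlap. The means were 22.0 ± 2.61 and 35.1 ± 4.41 FPKM (SD, n = 3 each), 1.60-fold lower in BBR mice. The log2 fold change was -0.65 (SE 0.13, 95% interval -0.97 to -0.33, limma adjusted p = 0.0362). The direction held on leaving out any mouse (-0.75 to -0.57), but omission of BBR mouse 1, BBR mouse 2, SASP mouse 1 or SASP mouse 3 ended the call, with adjusted p-values of 0.0947, 0.0968, 0.140 and 0.135, as did the fit with no filter (0.0541) and the smooth muscle covariate (0.237).

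**Figure D2:**
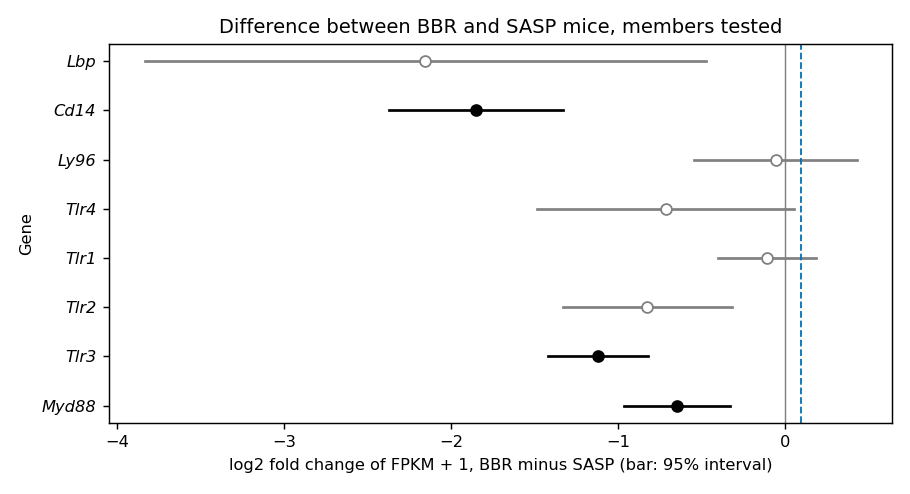
log2 fold change of FPKM + 1 (BBR minus SASP) of the 8 members tested, with unadjusted 95% intervals from limma over 3 mice per group; filled black points passed an adjusted p of 0.05 and the dashed line is the median of all tested genes, 0.10. Cd14, Tlr3 and Myd88 are filled, and the widest interval is that of Lbp.

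The order of levels differed between the groups. In SASP mice Cd14 was the highest member at 92.0 FPKM, and its range lay apart from that of Tlr1, which followed at 35.2 FPKM. Tlr1 overlapped with Myd88 and Myd88 with Lbp, and Lbp lay apart from Tlr3. Tlr3 and Tlr4 overlapped with each other, then Ly96 and Tlr2 lay apart, and Tlr5 and Tlr9 overlapped at the low end. In BBR mice Tlr1 had the highest mean at 32.7 FPKM, ahead of Cd14 and Myd88 with overlapping ranges. Ly96, which ranked higher by mean than with SASP, lay apart from Myd88. Ly96, Tlr4, Lbp and Tlr3 each overlapped with the next, down to Tlr2, and Tlr2, Tlr5 and Tlr9 lay apart from each other. BBR mouse 3 did not follow this order, with Cd14 (32.26 FPKM) above Tlr1 (29.53 FPKM) and Ly96 (13.00 FPKM) below Lbp and Tlr4. Of the receptors themselves, Tlr3 overlapped with Tlr4 in both groups. In BBR mice the range of Tlr3 also overlapped with that of Tlr2, although Tlr3 exceeded Tlr2 within each BBR mouse.

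**Figure D3:**
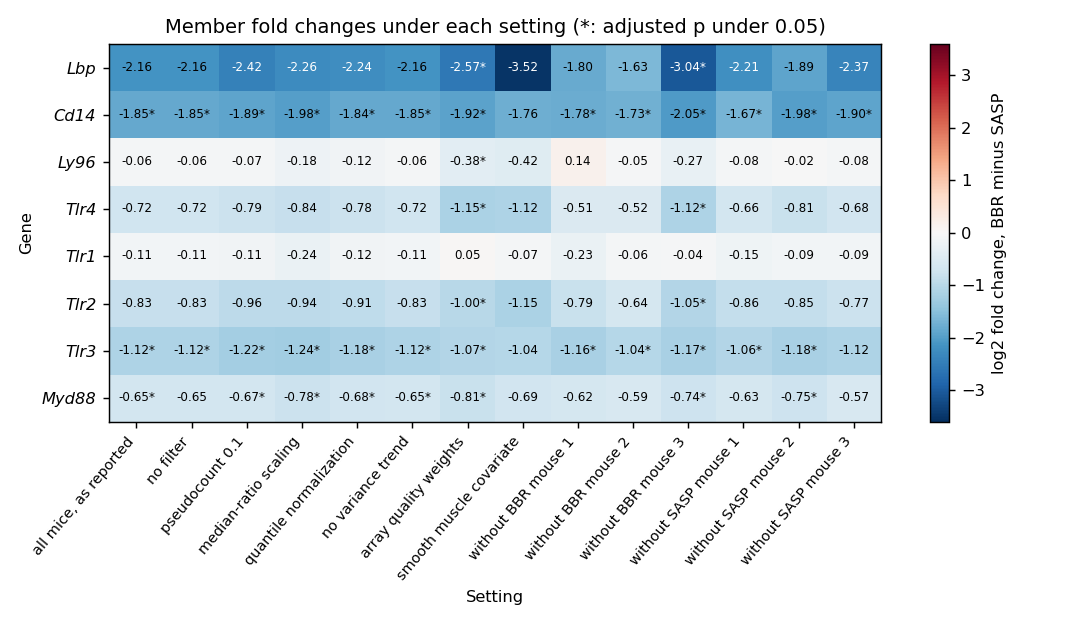
log2 fold change (BBR minus SASP, colour and printed value) of the 8 tested members with all mice, under 7 other settings of the fit and without each mouse, with an asterisk for an adjusted p under 0.05. Cd14 carries an asterisk in all columns except the smooth muscle covariate, and Lbp, Tlr4 and Tlr2 gain one without BBR mouse 3 and with array weights.

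Other genes of the pathway were taken from 6 lists of 64 genes in total, of which 44 were tested. Past the threshold were 5 of them (11.4%, beside 8.86% of all genes), 4 lower and 1 higher in BBR mice, and the median log2 fold change of the 44 was -0.12. The remaining Toll-like receptors, Tlr6, Tlr7, Tlr8, Tlr11, Tlr12 and Tlr13, were at or below 0.97 FPKM in all mice except Tlr7, a receptor for single-stranded RNA. Tlr7 was at 1.99 to 2.37 FPKM in BBR mice and 1.71 to 1.92 FPKM in SASP mice (log2 fold change 0.19, limma adjusted p = 0.346).

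With all mice included, adaptors and kinases that act directly below the receptors differed little. Of 15 genes 14 were tested and 0 passed the threshold in limma (2 at an unadjusted p under 0.05), with a median log2 fold change of -0.08. Tbk1, the kinase that phosphorylates Irf3 downstream of Ticam1, came nearest, at 18.07 to 21.51 FPKM in BBR and 26.09 to 26.74 FPKM in SASP mice (-0.41, limma adjusted p = 0.0534, and -0.35 with 0.0223 without BBR mouse 3). Tirap and Ticam1, the other adaptors, and Tab1 and Tab2 were named after their values were seen. With all mice the groups of Tirap and Ticam1 overlapped (-0.09 and 0.24, limma adjusted p = 0.649 and 0.530). Without BBR mouse 3, Ticam1 passed as higher in BBR mice (0.52, adjusted p = 0.0428). Tab1 and Tab2 also passed as higher only then (0.62 and 0.28, adjusted p = 0.0183 and 0.0309). With all mice Myd88 was thus the adaptor with a call, while without BBR mouse 3 both Myd88 (lower) and Ticam1 (higher) had one. The difference between Myd88 and the other adaptors was not tested.

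Of 10 genes for receptor folding, trafficking and accessory functions, 9 were tested and 1 passed. Hsp90b1 (gp96), the endoplasmic reticulum chaperone that most Toll-like receptors need to fold, was at 186.13, 230.43 and 255.08 FPKM in BBR mice and at 424.26, 360.35 and 387.04 FPKM in SASP mice (-0.81, limma adjusted p = 0.0260). Its call survived the omission of BBR mouse 3 but of no other mouse. Unc93b1, which carries endosomal receptors including Tlr3 and Tlr9 out of the endoplasmic reticulum, was at 20.14 to 25.11 FPKM with BBR and 28.83 to 43.70 FPKM in SASP mice (-0.74, limma adjusted p = 0.0518, and -0.67 with 0.0426 without BBR mouse 3).

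Among 10 negative regulators, 9 were tested and 1 passed. Socs1, an inhibitor of Jak-Stat signalling that also limits Toll-like receptor signalling, was at 2.49, 1.71 and 5.97 FPKM in BBR mice and at 40.14, 19.53 and 34.45 FPKM in SASP mice (-2.94, limma adjusted p = 0.0132, not kept on omitting BBR mouse 1, SASP mouse 1 or SASP mouse 3). Cyld, a deubiquitinase that restrains NF-kB activation, was at 7.57 to 8.76 and 10.35 to 12.73 FPKM (-0.47, adjusted p = 0.0596, and -0.42 with 0.0343 without BBR mouse 3). Of 8 genes for other handling of LPS, 2 were tested, and the peptidoglycan sensor Nod1 came nearest to the threshold (-0.76, limma adjusted p = 0.128, and -0.44 with 0.0869 without BBR mouse 3).

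Of 15 listed genes induced by LPS in macrophages 9 were tested, of which 7 were lower and 2 higher in BBR mice. With all mice 2 lower and 1 higher passed the threshold, and the median log2 fold change was -0.81. The chemokine Cxcl10, an interferon-inducible output of the Ticam1 branch, was at 2.01, 1.10 and 1.72 FPKM in BBR mice and at 38.96, 23.67 and 33.40 FPKM in SASP mice (-3.65, limma adjusted p = 0.000723), and its call held without any single mouse. The cytokine Tnf was at 1.02, 0.82 and 6.33 FPKM and at 23.02, 14.90 and 33.38 FPKM (-2.98, adjusted p = 0.0268, kept only on omitting BBR mouse 3 or SASP mouse 2). The T cell and monocyte chemokine Ccl5 went the other way, at 3.39, 5.88 and 2.68 FPKM under BBR against 1.15, 0.62 and 1.47 FPKM under SASP (1.23, adjusted p = 0.0407, kept only on omitting BBR mouse 3). Nos2, the inducible nitric oxide synthase, was at 0.80, 0.29 and 29.25 FPKM in BBR mice and at 110.07, 52.67 and 94.17 FPKM in SASP mice (-4.33, adjusted p = 0.0587), and BBR mouse 3 was between the other BBR mice and the SASP mice. Without BBR mouse 3 the value for Nos2 was -5.76 and passed (adjusted p = 0.000814). Saa3, Lcn2, Cxcl1 and Nfkbia, named after their values were seen, also passed as lower only without this mouse. Their values were then -2.78, -1.16, -1.32 and -0.65 (limma adjusted p = 0.00285, 0.0155, 0.0244 and 0.0287). Ccl5 stayed higher without it (1.42, adjusted p = 0.0119).

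**Figure D4:**
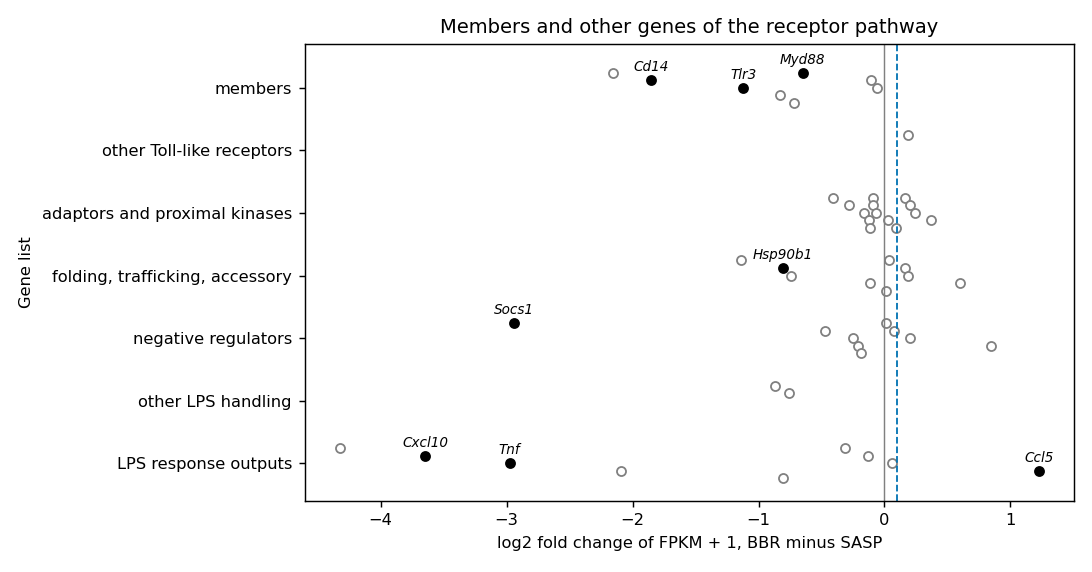
log2 fold change of FPKM + 1 (BBR minus SASP) of each tested gene of the members and of 6 lists of other pathway genes, with filled and named points for an adjusted p under 0.05 and a dashed line at the median of all tested genes, 0.10. Adaptors and kinases lie near 0, while Cxcl10 and Tnf lie at -3.65 and -2.98 and Ccl5 at 1.23.

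Markers of cell types were set beside these values, since the genes are expressed by leukocytes and epithelium. Of 10 macrophage markers 8 were tested and 0 passed the threshold in limma (1 at an unadjusted p under 0.05), with 4 higher and 4 lower, and their summed level was 59.19 to 94.20 FPKM in BBR and 76.92 to 91.38 FPKM in SASP mice. Single markers lay on either side, and of these, named after their values were seen, Mrc1 had all BBR values above all SASP values (log2 fold change 0.42, limma adjusted p = 0.102). Itgam, not tested, had all BBR values below all SASP values (0.69 to 0.83 against 0.92 to 1.02 FPKM). Mertk passed as higher only without BBR mouse 3 (0.81, limma adjusted p = 0.00974, and 0.47 with 0.291 in all mice). No other tested macrophage marker passed without this mouse. BBR mouse 3 had the lowest macrophage sum of all mice, and its Lbp, Tlr4 and Ly96 were the highest of the BBR mice. The macrophage markers did not all follow their sum. Among the BBR mice, Cd68 (5.69 FPKM, also named after its values were seen) and Itgam (0.83 FPKM) were highest in mouse 3. The other listed macrophage markers were lowest in it.

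Granulocyte markers were tested in 5 of 7 cases, with 4 lower and 1 higher in BBR mice. With all mice only S100a8 passed (-3.49, limma adjusted p = 0.0365, and -4.44 with 0.000132 without BBR mouse 3). S100a9, Csf3r and Ly6g, named after their values were seen, passed as lower only without this mouse (-3.04, -0.76 and -0.96, adjusted p = 0.00105, 0.0127 and 0.0152). Cxcr2, the higher one, was then at -0.02 (adjusted p = 0.946). BBR mice 1 and 2 had an S100a8 value of 0, BBR mouse 3 had 6.19 FPKM and the SASP mice had 18.53 to 23.14 FPKM, so BBR mouse 3 lay between the other BBR mice and the SASP mice, as it did for Tlr2. Mpo, another listed granulocyte marker, was at 0 to 0.02 FPKM and was not tested. The summed level, 191.6 to 567.0 FPKM in BBR and 357.1 to 536.1 FPKM in SASP mice, was carried by Ly6g, a member of a family of similar neighbouring genes, at 189.99 to 552.02 FPKM.

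Pan-leukocyte markers summed to 19.05 to 30.76 FPKM in BBR and 29.41 to 69.31 FPKM in SASP mice, with 6 of 6 negative and 0 past the threshold in limma (4 at an unadjusted p under 0.05). T cell markers summed to 3.48 to 5.36 and 2.52 to 4.68 FPKM with 1 of 6 tested and 0 past the threshold in limma (also 0 at an unadjusted p under 0.05). Plasmacytoid dendritic cell markers summed to 9.73 to 11.31 and 10.79 to 14.07 FPKM with 2 of 4 tested and likewise 0 past either threshold. This sum was carried mostly by Tcf4, at 7.44 to 9.16 FPKM, whereas Siglech and Ccr9 were at or below 0.65 FPKM and were not tested.

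Epithelial markers summed to 6338 to 7157 FPKM in BBR and 6648 to 7607 FPKM in SASP mice, with 6 of 8 higher and 2 lower. Past the threshold were Krt18, higher (0.75, limma adjusted p = 0.0163), Cdx2, higher (11.85 to 22.85 against 3.74 to 9.13 FPKM, adjusted p = 0.0422), and Vil1, lower (-0.55, adjusted p = 0.0327). Krt20, named after its values were seen, was the other lower marker (-1.18, adjusted p = 0.0613, and -1.53 with 0.00326 without BBR mouse 3). Fibroblast markers summed to 226.5 to 307.6 and 102.1 to 179.2 FPKM with 4 of 6 past the threshold as higher, among them Thy1, Col3a1 and Lum. Smooth muscle markers summed to 2792 to 6613 FPKM in BBR and 709.7 to 2227 FPKM in SASP mice, and endothelial markers to 10.57 to 22.11 and 5.85 to 8.33 FPKM. With all mice, both had 0 genes past the threshold in limma (6 of 8 and 1 of 3 at an unadjusted p under 0.05). The endothelial marker Pecam1 and the fibroblast marker Pdgfra, named after their values were seen, passed as higher only without BBR mouse 3 (1.18 and 0.53, limma adjusted p = 0.019 and 0.044). After adjustment for a smooth muscle score (the mean log2 level of the 8 markers), Cd14, Tlr3 and Myd88 had log2 fold changes of -1.76, -1.04 and -0.69 and lost their calls (adjusted p = 0.148, 0.147 and 0.237). The score did not overlap between the groups (7.65 to 8.77 in BBR and 5.83 to 7.38 in SASP mice), so the amount of muscle in a sample and the drug cannot be told apart. The part of these cell types in the levels of the receptor genes was not tested otherwise.

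**Figure D5:**
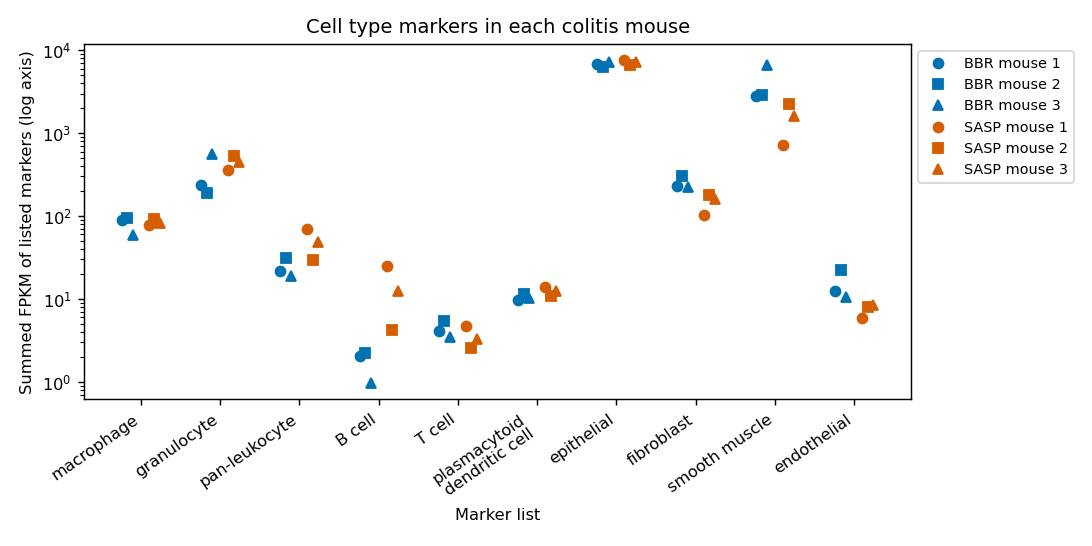
Summed FPKM (log axis) of fixed markers of 10 cell types in each mouse, with blue for BBR, orange for SASP and a symbol shape per mouse. Macrophage sums overlap, B cell sums are higher in SASP mice, and smooth muscle sums are higher in BBR mice, most in BBR mouse 3.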

How the data were processed

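Per the labels and the methods of the study, RNA from colorectal tissue was extracted with Trizol, reads were aligned with Bowtie2 2.2.5, and the authors computed FPKM per gene with RSEM 1.2.12. The deposited FPKM are rounded to 2 decimals. The submitters' processing notes name the build mm9. The annotation is not given in the sources used here, so gene coordinates of the deposited table were not used. The labels name an Illumina library kit, and the methods describe rRNA depletion and single-end BGISEQ reads.

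Groups followed the treatment label, and replicate numbers followed accession order and pair no mice. Nothing states the age or dose for each mouse singly, and these were taken from the methods of the study. FPKM were transformed to log2(FPKM + 1), which understates changes of low genes. Genes with at least 1 FPKM in at least 3 of 6 samples (12072) were fitted with limma 3.58.1 (R 4.3.3), with a mean-variance trend, two-sided tests and Benjamini-Hochberg adjustment at 0.05. Permutation tests were not used, since the smallest two-sided exact p for these group sizes is 0.1. The fit was tested on simulated data.

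Depth was approximated from short genes (under 1500 bases in GENCODE M21) that a single sample detected, 28 to 44 per sample, by taking their median value as 1 read. No pair of samples had more than 0.389% identical values among tested genes. Alternatives were no filter, a pseudocount of 0.1, median-ratio scaling, quantile normalization, no variance trend, array weights, a smooth muscle covariate and each mouse left out.

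All members were named. Of each pathway list the genes past the threshold (up to 5) and the nearest to it were named, and of each marker list up to 3 past it, with exceptions identified in the text. The members and lists were chosen with earlier results of these data known. 1 listed marker, left out of its list and sum, and 1 gene of similar pattern are not reported here.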

Additional observations from a re-analysis of the deposited data

How the results depend on the processing

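The 3 members past the threshold became 7 with array weights and 0 with the smooth muscle covariate, and it lay between 1 and 6 on omitting single mice, lowest without SASP mouse 3 and highest without BBR mouse 3. The 5 other pathway genes became 10 with median-ratio scaling, 9 with quantile normalization, 28 with array weights, 1 with the smooth muscle covariate and 1 to 18 on omitting single mice. Over all genes the 1069 calls became 591 with no filter, 1683 with median-ratio scaling, 1737 with quantile normalization, 7126 with array weights, 19 with the smooth muscle covariate and 96 to 4051 on omitting single mice. The cause of these shifts was not tested. The share of calls that were lower in BBR mice was 56.9%, and it was 70.4% with median-ratio scaling, 34.9% with array weights and 89.5% with the smooth muscle covariate. Median-ratio scaling moved the median over all tested genes from 0.10 to -0.02 on the log2 scale. Among the members, Cd14, Tlr3, Myd88, Lbp, Tlr4 and Tlr2 kept their negative direction in all 13 alternatives, while Tlr1 turned to 0.052 with array weights and Ly96 to 0.14 without BBR mouse 1 (-0.27 to 0.14 over the omitted mice). Array weights were 0.129 for BBR mouse 3, 5.32 for BBR mouse 1 and 4.85 for SASP mouse 3, and 0.589 to 0.746 for the other mice. This fit thus rested mostly on BBR mouse 1 and SASP mouse 3, and 59% of the tested genes passed in it. It brought Ly96 past the threshold (-0.38), whereas omitting BBR mouse 3 did not (-0.27, limma adjusted p = 0.174). No paired analysis was possible because the labels give the groups no shared replicate numbers. With 3 mice per group, differences as small as those of Ly96 and Tlr1 were not detectable.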

Other observations

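For each member past the threshold, the genes with the most similar pattern over the 6 samples were sought among 6041 tested genes with a mean of at least 10 FPKM. For Cd14 these were the integrin gene Itga6 (Pearson r = 0.997) and the proteasome regulatory subunit genes Psmd2 (0.996) and Psmd1 (0.995). For Tlr3 they were Cnp, Cxcl10 and Lamp2 (each 0.997), and for Myd88 they included Impad1 (0.996) and Tmed7 (0.994). These are descriptions over 6 samples that fall into 2 groups, and 225, 232 and 182 genes exceeded r = 0.95 for Cd14, Tlr3 and Myd88. Of these neighbours Cxcl10 differed the most, and Itga6 was at 23.06 to 30.22 FPKM in BBR and 45.02 to 52.89 FPKM in SASP mice (log2 fold change -0.85, limma adjusted p = 0.0185).

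Further genes linked to these receptors were named after their values were seen. Ly86 (MD-1), the partner of the receptor Cd180, was at 2.24, 2.65 and 0.98 FPKM under BBR against 7.22, 3.49 and 5.76 FPKM under SASP (-1.14, limma adjusted p = 0.0615, and -0.87 with 0.0444 without BBR mouse 3). Its order of SASP mice was that of the summed B cell markers, and also that of the pan-leukocyte, T cell and plasmacytoid dendritic cell sums. Cd180 itself was at 0.40, 0.30 and 0.07 FPKM in BBR mice and at 1.06, 0.28 and 0.60 FPKM in SASP mice, with overlapping groups, and was not tested. Casp4, the cytosolic sensor of LPS, was at 16.03, 11.91 and 75.02 FPKM in BBR mice and at 45.98, 41.84 and 49.51 FPKM in SASP mice, so BBR mouse 3 was the highest of all mice (-0.87, limma adjusted p = 0.352). Without BBR mouse 3 the value for Casp4 was -1.65 and passed (adjusted p = 0.00164).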
